A study of Mus musculus with 9 samples.

Results

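The guidance genes described here are the ephrins and their Eph receptors, the Slits and their Robo receptors, and the netrins with the receptors Dcc, Neo1 and Unc5. They are 36 genes taken by symbol, and the list was drawn up with earlier results of these data known, although it sets no threshold on a measured value. Of these, 35 had at least 1 probe set annotated to that symbol alone, among 19938 genes measured in the same way, and Ephb2 is not analysed here. For the 2 genes with a pair of probe sets, Ephb1 and Unc5d, the brighter of the pair over all 9 arrays was used. Each array holds RNA of an independent preparation of neonatal mouse back skin, collected at postnatal day 4. The 4 SKP arrays (replicates 3, 4, 5 and 6) hold skin-derived precursor cells, grown in culture at primary passage and taken as spherical colonies. The labels name no mouse strain for them. The 5 sorted arrays (replicates 2, 16, 17, 18 and 20) hold cells that were sorted from the dissociated skin of Sox2:EGFP mice (EGFP serves as a reporter of Sox2) by the presence of EGFP and the absence of CD34, straight into RNAlater. The groups differ in culture, in sorting and in which cells were taken, and these effects cannot be told apart. The labels do not say how many animals went into a preparation.

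Guidance genes encode short-range and secreted cues that attract or repel growing axons and migrating cells, and many of them also act in skin, vessels and other tissues. Ephrins are ligands bound to the cell surface, the A class through a lipid anchor and the B class through a membrane-spanning segment. They bind Eph receptor tyrosine kinases on neighbouring cells, and signals run into both cells. Slits are secreted proteins that bind Robo receptors and mostly repel. Netrins are secreted relatives of laminin that attract through Dcc and its relative neogenin (Neo1) and repel through Unc5 receptors. In neural crest, the source of several skin cell types, ephrins and Slits steer migration.

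In SKPs, 12 of the 22 receptors measured were lower than in the sorted cells, 2 were higher and 8 were not called. Of the 13 ligands 6 were lower, 2 were higher and 5 were not called, among them all 3 Slits. The share called was 63.6% of the receptors and 61.5% of the ligands, against 37.0% of all genes. The netrin receptor Dcc was 10.9-fold lower, Robo2 6.18-fold, Ephb6 4.71-fold, Efna1 4.49-fold and Epha1 4.16-fold lower. The netrin receptor Unc5a was 4.55-fold, the ephrin receptor Epha3 2.83-fold and Ntn1, encoding netrin-1, 2.03-fold higher. Of the 35 genes 22 were called, which is 62.9%, against 37.0% of all 19938 genes. Of these, 4 were higher in SKPs (20.2% of all genes were) and 18 lower (16.9% of all genes were). By at least 2-fold, 3 were higher (5.46% of all genes) and 13 lower (6.25% of all genes). In 21 of the 35 the ranges of the SKP and sorted arrays did not overlap, against 34.0% of all genes. The median log2 difference was -0.43 over the 35 genes and 0.07 over all genes. A gene is called, and said to be higher or lower, when its Benjamini-Hochberg adjusted p from limma over all genes was under 0.05. In bulk RNA, fewer cells that express a gene and less RNA of it in each cell cannot be told apart.

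Levels are log2 values of the RMA summary, so a difference of 1 is a 2-fold change, and levels of different genes are not compared. As a reference for genes not thought to be active in skin, the 1190 olfactory and vomeronasal receptor genes were used. In 95% of them the group mean was under 6.10 in SKPs and 6.06 in the sorted cells, called the reference level below. Folds against a group near this level are approximate, since a low level may be mostly background.

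Marker genes of skin cell types differed between the groups and among the sorted arrays, and their relation to the guidance genes was not tested. Of 17 dermal papilla markers 15 were lower and 1 higher in SKPs, and the list mean was 7.41 to 7.53 on the SKP arrays. On sorted replicates 2, 16, 17, 18 and 20 it was 10.27, 11.25, 11.10, 11.17 and 9.71. All 12 keratinocyte markers were lower in SKPs, with list means of 6.33 to 6.68 in SKPs and 10.14, 9.41, 9.22, 9.35 and 11.73 on the sorted arrays in the same order. All 8 markers of hair matrix and shaft were lower too, at 5.86 to 6.17 in SKPs and 7.81, 10.36, 10.19, 10.25 and 7.82 on the sorted arrays. Of 11 fibroblast markers 6 were higher and 1 lower in SKPs, at 11.38 to 11.46 in SKPs and 11.30, 10.09, 10.13, 10.06 and 11.40 on the sorted arrays. Cd34 is among the 6 higher fibroblast markers and Sox2 among the 15 lower papilla markers. The values of Cd34 and Sox2 are not independent of the sort, which used CD34 and a reporter of Sox2. In the list means, sorted replicates 2 and 20 were both lower than the other 3 for papilla and hair matrix and higher than them for keratinocyte and fibroblast markers. Single markers did not all follow. The papilla markers Prom1, Tbx18 and Sox2 were higher on both replicates, and the fibroblast marker Pdgfra was lower on both. The hair matrix marker Gata3 was highest on replicate 20, and the keratinocyte markers Dsp and Perp were lowest on replicate 2. All 6 Schwann cell markers measured and 5 of 6 melanocyte markers were lower in SKPs, 5 of 9 pericyte markers were lower and 1 higher, and 10 of 11 myeloid markers were higher. The myeloid list mean was 7.58, 7.01, 8.61 and 7.96 on SKP replicates 3, 4, 5 and 6, a wide spread within the group, and 5.86 to 6.25 on the sorted arrays. Of 10 endothelial markers 2 were lower, and of 10 neuronal markers 2 were higher and 1 lower. Some values are also given without sorted replicates 2 and 20. Without them 4 of the 35 genes were higher and 20 lower.

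**Figure D1:**
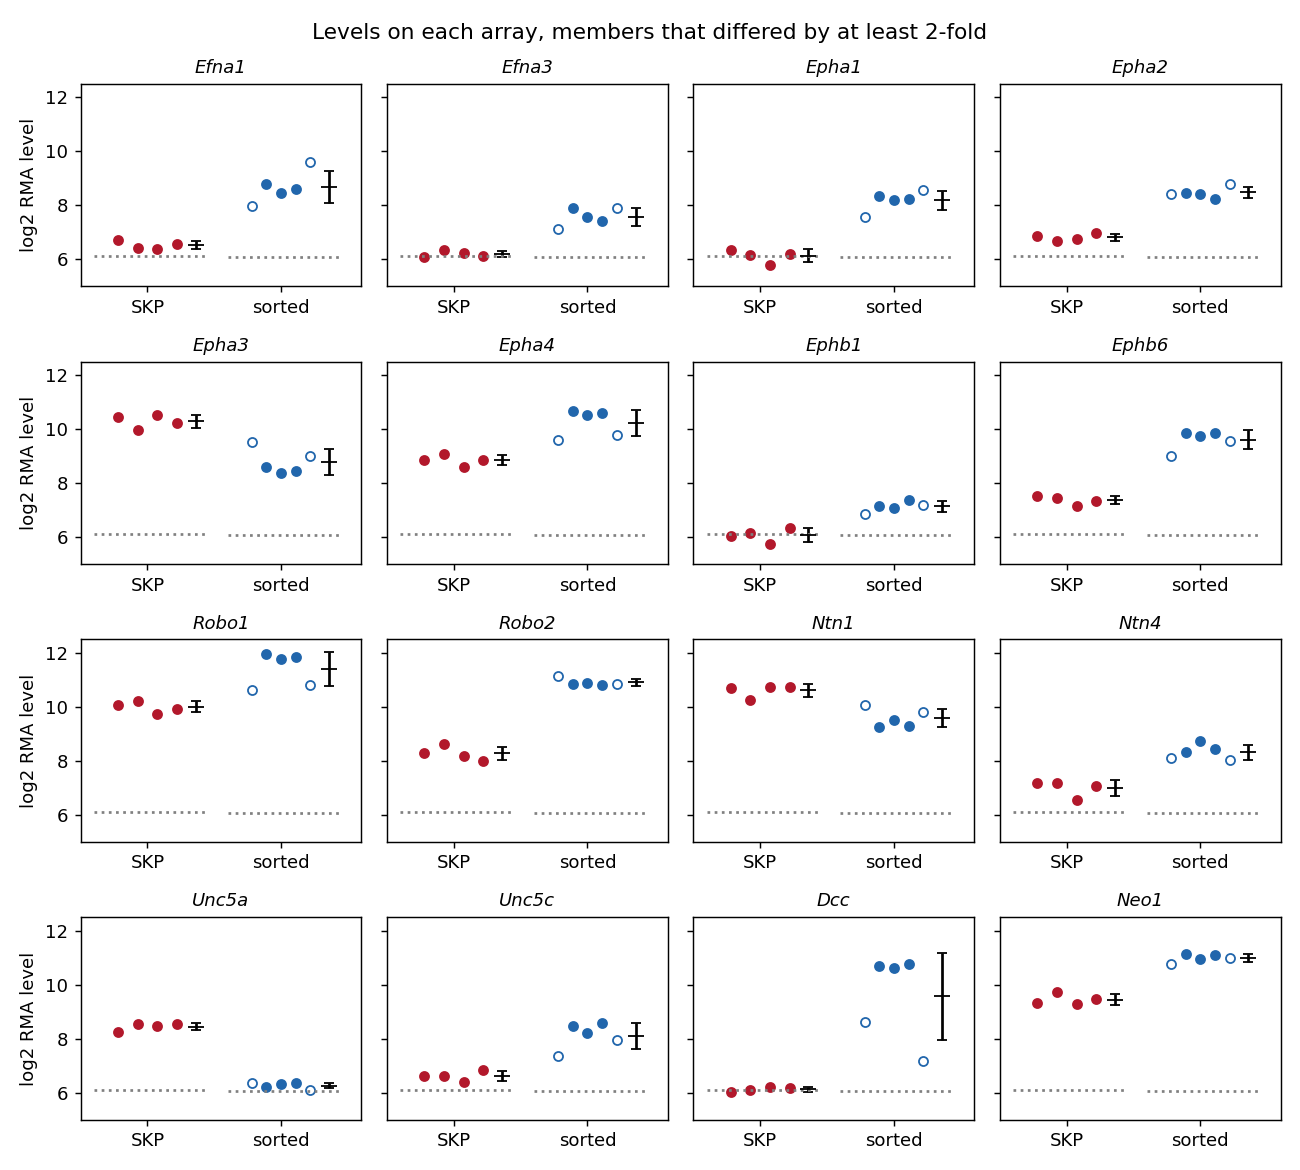
Log2 RMA level of the 16 guidance genes that were called with a difference of at least 2-fold, with 1 point per array, SKPs in red and sorted cells in blue. Open points are sorted replicates 2 and 20, the black bar is the mean with its SD (n = 4 SKP and n = 5 sorted arrays), and the dotted line is the reference level of olfactory and vomeronasal receptor genes. Groups do not overlap in any of the 16 panels, and Dcc has the widest spread among the sorted arrays.

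Among the A-class ephrins, Efna1, Efna3 and Efna5 were lower in SKPs and Efna2 and Efna4 were not called. Efna1 (probe set 10499536) lay at 6.70, 6.40, 6.38 and 6.55 on SKP replicates 3, 4, 5 and 6, and at 7.98, 8.79, 8.44, 8.58 and 9.59 on sorted replicates 2, 16, 17, 18 and 20. The same order of replicates is used for all later values. Every SKP array was below every sorted array, and sorted replicate 20, with the highest keratinocyte list mean, was also highest in Efna1. Sorted replicate 2, with the second highest keratinocyte list mean, was the lowest sorted array in Efna1. Single keratinocyte markers were split on that replicate. Krt1, Krt5, Krt10, Krt14, Krt15, Dsc3 and Dsg3 were second highest there among the sorted arrays, whereas Dsp and Perp were lowest. The mean was 6.51 ± 0.15 against 8.67 ± 0.59 (SD, n = 4 and n = 5), 4.49-fold lower in SKPs (log2 difference -2.17, SE 0.27, adjusted p = 1.34e-04). The part of keratinocyte RNA in this difference was not tested. Efna3 (probe set 10499545) lay at 6.07, 6.34, 6.23 and 6.10 in SKPs and at 7.10, 7.90, 7.54, 7.40 and 7.90 in the sorted cells. Its SKP values were close to the reference level, and the groups did not overlap (log2 difference -1.38, SE 0.16, adjusted p = 1.11e-04). Efna5, which encodes a ligand that also binds an EphB receptor, was 1.62-fold lower, at 9.31 ± 0.30 against 10.01 ± 0.29 (adjusted p = 0.0105). Efna4 was at 7.79 ± 0.11 against 7.92 ± 0.27, and the 95% confidence interval of its log2 difference was -0.43 to 0.17 (adjusted p = 0.483). Efna2 was at 8.10 ± 0.12 against 8.43 ± 0.37 (adjusted p = 0.164). Without sorted replicate 2, or without both replicates 2 and 20, Efna2 was called lower in SKPs (-0.58 on the log2 scale without both, adjusted p = 8.46e-04).

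Efna1, Efna3 and Efna4 follow each other without another protein-coding gene between them in the RefSeq gene order of mouse chromosome 3. These neighbours differed in their outcome, with Efna1 and Efna3 called lower and Efna4 not called, although the difference between them was not tested. The 200 bases upstream of their start sites are shown for that reason, together with those of Unc5a, the member with the largest increase. They are from RefSeq in build GRCm38.p6, 5′ to 3′ on the gene's strand, and for Efna1 and Efna3, which have 2 listed starts each, from the start farthest upstream. The windows lie at chr3:89280952-89281151, minus strand for Efna1, at chr3:89322940-89323139, minus strand for Efna3, at chr3:89338029-89338228, minus strand for Efna4 and at chr13:54949211-54949410, plus strand for Unc5a. Capitals mark GC boxes, searched as GGGCGG on both strands.
Efna1: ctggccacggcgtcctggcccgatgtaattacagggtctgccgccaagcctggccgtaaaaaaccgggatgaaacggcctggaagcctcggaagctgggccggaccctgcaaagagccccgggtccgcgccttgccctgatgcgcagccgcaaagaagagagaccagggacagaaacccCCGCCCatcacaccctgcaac
Efna3: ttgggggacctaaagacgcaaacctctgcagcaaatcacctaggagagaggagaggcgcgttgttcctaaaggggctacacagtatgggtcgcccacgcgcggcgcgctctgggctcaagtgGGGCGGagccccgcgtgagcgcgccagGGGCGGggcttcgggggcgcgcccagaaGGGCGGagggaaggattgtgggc
Efna4: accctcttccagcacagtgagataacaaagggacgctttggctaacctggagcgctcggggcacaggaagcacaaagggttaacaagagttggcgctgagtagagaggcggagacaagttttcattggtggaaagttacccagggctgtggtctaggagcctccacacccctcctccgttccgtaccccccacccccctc
Unc5a: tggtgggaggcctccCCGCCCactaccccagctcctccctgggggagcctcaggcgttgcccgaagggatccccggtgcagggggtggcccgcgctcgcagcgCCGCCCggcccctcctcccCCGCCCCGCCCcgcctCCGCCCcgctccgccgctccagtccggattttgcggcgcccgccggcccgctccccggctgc
The Efna1 window holds 1 GC box, the Efna3 window 3, the Unc5a window 5 and the Efna4 window 0. Bases G and C make up 64.5%, 67.5%, 80.5% and 57.5% of these windows in the same order. RefSeq start windows were matched for 31 of the 36 symbols (36 windows), among them Ephb2. None was matched for Dcc, Efnb3, Ntn1, Slit1 and Unc5d. Several starts of a gene count as separate windows, also where they overlap as for Epha7, so the windows are not independent. A GC box was found in 25 of the 36 windows, or 69.4%, and in 31.1% of all 32851 windows of the same length. The 36 windows were also richer in G and C, with a median of 66.8% against 53% over all windows, and the GC box count was not adjusted for this. A TATA box (TATAAA, both strands) was found in 2 of the 36, against 9.96% of all windows. The AP-1 letters TGANTCA were in 0 of the 36 windows, against 5.48% of all windows. The E-box letters CANNTG were in 14 of the 36, against 58.2% of all windows. These matches describe letters only, and which start sites the cells used was not measured.

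The B-class ephrins, which carry a signalling tail inside the cell, all passed the test with differences under 2-fold. Efnb1 was lower in SKPs, at 8.71, 8.66, 8.48 and 8.67 against 9.31, 9.27, 9.27, 9.18 and 9.26 in the sorted cells. Its groups did not overlap, and the sorted values lay close together (1.54-fold lower, log2 difference -0.63, SE 0.07, adjusted p = 9.26e-05). Efnb2, known as a mark of arterial endothelium and also made by other cells, was higher in SKPs, at 9.60, 9.66, 9.62 and 9.54 against 9.13, 9.18, 9.13, 9.11 and 9.51. Sorted replicate 20 was near the SKP values and the other 4 sorted arrays were close together (1.31-fold higher, log2 difference 0.39, SE 0.10, adjusted p = 0.00865). Efnb3 was called lower at 6.73 ± 0.24 against 7.16 ± 0.23 (1.35-fold, adjusted p = 0.0406), although its groups overlapped. Its value was 6.94 on 4 arrays, SKP replicates 3 and 6 and sorted replicates 2 and 20, identical to the last digit given. The call of Efnb3 was lost on median centring and without SKP replicate 4 or 5 or sorted replicate 16, 17 or 18, with an adjusted p of up to 0.110.

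Of the 8 EphA receptors 3 were lower and 1 higher in SKPs, each by more than 2-fold. Epha2, a receptor widely made by epithelial cells, lay at 6.84, 6.65, 6.73 and 6.97 in SKPs and at 8.43, 8.45, 8.42, 8.24 and 8.80 in the sorted cells. All sorted arrays were well above all SKP arrays, and Epha2 was 3.18-fold lower in SKPs (probe set 10509965, log2 difference -1.67, SE 0.12, adjusted p = 3.53e-06). Epha1, the founding member of the Eph family and known from epidermis, lay at 6.33, 6.16, 5.78 and 6.20 in SKPs and at 7.57, 8.33, 8.19, 8.22 and 8.55 in the sorted cells. The SKP values lay around the reference level, so the 4.16-fold decrease is approximate (probe set 10544417, log2 difference -2.06, SE 0.19, adjusted p = 1.93e-05). As with Efna1, sorted replicate 20 was highest for both genes, whereas sorted replicate 2 was the lowest sorted array in Epha1 and within the range of the others in Epha2. The part of keratinocyte RNA was not tested. Epha4, which binds ephrins of both classes, lay at 8.85, 9.06, 8.59 and 8.86 in SKPs and at 9.61, 10.66, 10.50, 10.59 and 9.79 in the sorted cells. Sorted replicates 2 and 20 were nearer to the SKPs than the other 3 (probe set 10355893, 2.62-fold lower, log2 difference -1.39, SE 0.23, adjusted p = 8.94e-04). Without both, Epha4 was 3.35-fold lower. The papilla and hair matrix list means split the sorted arrays in the same way, and their part in this difference was not tested.

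Epha3, a receptor known from mesenchymal cells, moved the other way. It lay at 10.43, 9.97, 10.51 and 10.21 in SKPs and at 9.51, 8.58, 8.35, 8.46 and 8.99 in the sorted cells (probe set 10440258). Every SKP array was above every sorted array, and among the sorted arrays replicates 2 and 20 were highest. The mean was 10.28 ± 0.24 against 8.78 ± 0.48 (SD, n = 4 and n = 5), 2.83-fold higher in SKPs (log2 difference 1.50, SE 0.23, adjusted p = 5.60e-04), and 3.52-fold higher without replicates 2 and 20. The fibroblast list mean was likewise high in SKPs, close to the SKP values on sorted replicates 2 and 20 and lower on the other 3, and its part in this difference was not tested. Among the SKP arrays, Epha3 was lowest on replicate 4 and highest on replicate 5, as was the myeloid list mean, whose part was not tested either. Epha7 was not called, at 9.47 ± 0.40 against 9.06 ± 0.21, with an interval of 0.01 to 0.82 (adjusted p = 0.106). Epha5 was under the reference level in SKPs, and in the sorted cells reached 6.99 and 6.78 on replicates 2 and 20, whereas the other 3 lay between 5.51 and 6.01 (adjusted p = 0.450). Its log2 difference was -0.32 over all arrays and 0.13 without replicates 2 and 20, so it had no settled direction. Epha8 was at 6.56 ± 0.25 against 6.36 ± 0.14 (adjusted p = 0.241). Epha6 was under the reference level in both groups (5.25 ± 0.25 against 5.44 ± 0.02), with adjusted p = 0.216.

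All 4 EphB receptors measured were lower in SKPs in the probe set used for each, against 16.9% of all genes. The groups overlapped in 0 of the 4, and over all genes 34.0% had no overlap. Ephb6, whose kinase domain is inactive, lay at 7.50, 7.46, 7.16 and 7.33 in SKPs and at 9.004, 9.84, 9.74, 9.86 and 9.54 in the sorted cells. The lowest sorted array, replicate 2, was still well above the highest SKP array (probe set 10537657, 4.71-fold lower, log2 difference -2.23, SE 0.17, adjusted p = 6.38e-06). Replicate 20 was the next lowest, and without both the decrease was 5.47-fold. The part of papilla and hair matrix RNA in the Ephb6 difference was not tested. Ephb3 was at 8.61 ± 0.14 against 9.18 ± 0.13 (1.49-fold lower, adjusted p = 0.00106). Ephb4, known as the receptor of Efnb2 on venous endothelium, lay at 8.83, 9.004, 8.77 and 8.89 in SKPs and at 9.24, 9.52, 9.45, 9.42 and 9.88 in the sorted cells (1.55-fold lower, adjusted p = 0.00251). The endothelial list mean was 6.29 to 6.61 in SKPs and 7.08, 6.31, 6.43, 6.38 and 7.59 on the sorted arrays. Ephb4 and that list were both highest on sorted replicate 20, whereas on replicate 2 the list was second highest and Ephb4 lowest of the sorted arrays. The part of endothelial RNA in the Ephb4 difference was not tested. Ephb1 lay at 6.05, 6.15, 5.75 and 6.34 in SKPs, around the reference level, and at 6.87, 7.15, 7.05, 7.38 and 7.19 in the sorted cells (probe set 10596095, 2.08-fold lower, log2 difference -1.06, SE 0.14, adjusted p = 1.83e-04). A further probe set of Ephb1 (10596115) was at 5.89 and 6.03 in the group means, under the reference level in both groups, with a log2 difference of -0.14. It was not called with every probe set tested on its own (limma adjusted p = 0.508), so it did not repeat the decrease. Whether its low level hid a difference was not tested. With the mean over both probe sets the log2 difference of Ephb1 was -0.60, under 2-fold, and the call was kept.

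**Figure D2:**
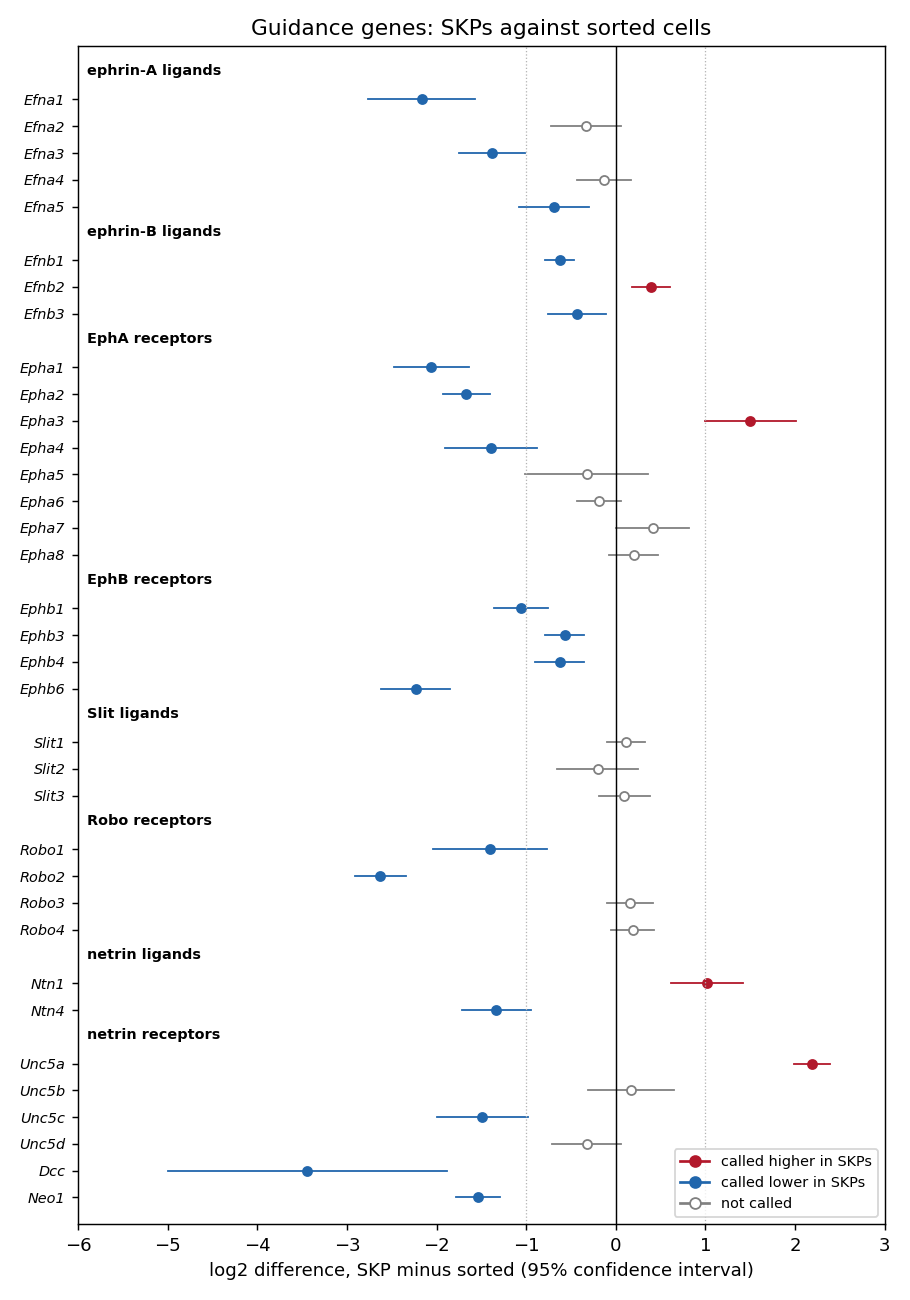
Log2 difference, SKP minus sorted, of the 35 guidance genes by role, with the 95% confidence interval from limma (n = 4 and n = 5 arrays). Filled points were called higher (red) or lower (blue), open points were not called, and dotted lines mark 2-fold. The 4 genes to the right among the called are Efnb2, Epha3, Ntn1 and Unc5a, and the intervals of the 3 Slits lie between -0.65 and 0.38.

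None of the 3 Slit ligands was called by limma, and none had an unadjusted p under 0.05. Slit2 lay at 10.36, 10.51, 10.39 and 10.33 in SKPs and at 11.34, 10.29, 10.69, 10.43 and 10.24 in the sorted cells. Sorted replicate 2 was highest and the other arrays of both groups were mixed in order, with an interval for the log2 difference of -0.65 to 0.25 (adjusted p = 0.481). Slit3 lay at 11.24, 11.19, 10.90 and 11.02 in SKPs and at 11.38, 10.95, 10.95, 10.90 and 10.78 in the sorted cells, again highest on sorted replicate 2 and otherwise mixed in order. Its interval was -0.19 to 0.38 (adjusted p = 0.592). For both genes a change of 2-fold in either direction lies outside the interval. Slit1 was near the reference level in both groups (6.16 ± 0.17 against 6.05 ± 0.08, adjusted p = 0.374).

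Of the Robo receptors, Robo1 and Robo2, the main Slit receptors of axons, were lower in SKPs. Robo2 (probe set 10440344) lay at 8.29, 8.61, 8.19 and 8.01 in SKPs and at 11.16, 10.85, 10.88, 10.80 and 10.83 in the sorted cells. The gap between the groups was much larger than the spread within either, and sorted replicate 2 was highest. The mean was 8.28 ± 0.25 against 10.90 ± 0.14 (SD, n = 4 and n = 5), 6.18-fold lower (log2 difference -2.63, SE 0.13, adjusted p = 3.09e-07). Robo1 (probe set 10436519) lay at 10.09, 10.22, 9.75 and 9.94 in SKPs and at 10.62, 11.94, 11.76, 11.86 and 10.81 in the sorted cells. Sorted replicates 2 and 20 were only a little above the highest SKP array, and the other 3 were far above it. The decrease was 2.64-fold in all arrays (log2 difference -1.40, SE 0.29, adjusted p = 0.00324) and 3.62-fold without those replicates (adjusted p = 3.26e-06). The papilla and hair matrix list means were lower on the same replicates, and their part in this decrease was not tested. Robo3, a receptor of commissural axons, was under the reference level in both groups (5.96 ± 0.18 against 5.80 ± 0.16, adjusted p = 0.312). Robo4, the Robo of endothelial cells, was near the reference level in both groups (6.15 ± 0.19 against 5.96 ± 0.13, adjusted p = 0.201).

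The 2 netrins on the list moved in opposite directions. Ntn1, which encodes the secreted cue netrin-1, lay at 10.71, 10.26, 10.72 and 10.73 in SKPs and at 10.07, 9.26, 9.50, 9.30 and 9.81 in the sorted cells. Every SKP array was above every sorted array, and SKP replicate 4 was lowest of its group (probe set 10387170, 2.03-fold higher, log2 difference 1.02, SE 0.18, adjusted p = 0.00140). As with Epha3, sorted replicates 2 and 20 were above the other 3, and without them the increase was 2.39-fold. The myeloid list mean was also lowest on SKP replicate 4 within its group. The parts of fibroblast and myeloid RNA were not tested. Ntn4, which encodes a netrin of basement membranes, lay at 7.18, 7.17, 6.54 and 7.06 in SKPs and at 8.10, 8.33, 8.72, 8.43 and 8.01 in the sorted cells. The groups did not overlap, and SKP replicate 5 was lowest (probe set 10365817, 2.52-fold lower, log2 difference -1.33, SE 0.17, adjusted p = 2.04e-04). Replicates 2 and 20 were the lowest sorted arrays in Ntn4, and the part of papilla and hair matrix RNA was not tested.

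Of the 35 genes, the largest decrease and the largest increase in the group mean were both in netrin receptors, Dcc and Unc5a. Dcc, the receptor for attraction by netrin-1, lay at 6.02, 6.09, 6.20 and 6.18 in SKPs, around the reference level (probe set 10459671). In the sorted cells it lay at 8.60, 10.70, 10.62, 10.76 and 7.16, very high on replicates 16, 17 and 18, lower on replicate 2 and lowest on replicate 20. The mean was 6.12 ± 0.08 against 9.57 ± 1.63 (SD, n = 4 and n = 5), an approximate 10.9-fold decrease (log2 difference -3.44, SE 0.70, adjusted p = 0.00311). Without sorted replicates 2 and 20 the decrease was 23.8-fold (adjusted p = 3.50e-09). Without replicate 20 alone the log2 difference was -4.05 (16.5-fold lower, adjusted p = 7.36e-05). The same split of sorted arrays, with replicates 16, 17 and 18 above 2 and 20, was seen in the papilla and hair matrix list means. Their part in the Dcc difference was not tested. Neo1, which encodes neogenin, lay at 9.33, 9.71, 9.30 and 9.47 in SKPs and at 10.78, 11.15, 10.96, 11.10 and 10.98 in the sorted cells. It was lower in SKPs with little spread in either group (probe set 10594110, 2.91-fold lower, log2 difference -1.54, SE 0.11, adjusted p = 4.11e-06).

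The Unc5 receptors, which mediate repulsion by netrin-1, had different outcomes, with Unc5a higher, Unc5c lower and Unc5b and Unc5d not called. Unc5a (probe set 10405355) lay at 8.24, 8.54, 8.47 and 8.55 in SKPs and at 6.34, 6.20, 6.31, 6.35 and 6.12 in the sorted cells. The sorted values were just above the reference level on all 5 arrays and the SKP values far above it. The mean was 8.45 ± 0.14 against 6.26 ± 0.10 (SD, n = 4 and n = 5), an approximate 4.55-fold increase (log2 difference 2.19, SE 0.09, adjusted p = 1.13e-07). Sorted replicates 2 and 20 did not stand apart here. Unc5c (probe set 10496519) lay at 6.62, 6.61, 6.39 and 6.84 in SKPs and at 7.34, 8.46, 8.20, 8.58 and 7.95 in the sorted cells. Replicate 2 was the lowest sorted array, replicate 20 the next, and both were above all SKP arrays (2.81-fold lower, log2 difference -1.49, SE 0.23, adjusted p = 5.64e-04). As for Dcc, the part of papilla and hair matrix RNA was not tested. Unc5b was not called, at 8.94 ± 0.04 against 8.77 ± 0.48 with an interval of -0.31 to 0.65 (adjusted p = 0.580). It was low on sorted replicate 2 (8.05) and 20 (8.54) and at 8.97 to 9.26 on the other 3. Its log2 difference turned from 0.17 to -0.15 without replicates 2 and 20, and it was not called in either case. Unc5d was not called at 6.70 ± 0.25 against 7.03 ± 0.30 (adjusted p = 0.166), and both of its probe sets gave a difference of the same sign (-0.33 and -0.42). Without sorted replicate 20, or without both replicates 2 and 20, Unc5d was called lower (-0.52 without both, adjusted p = 0.0142).

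**Figure D3:**
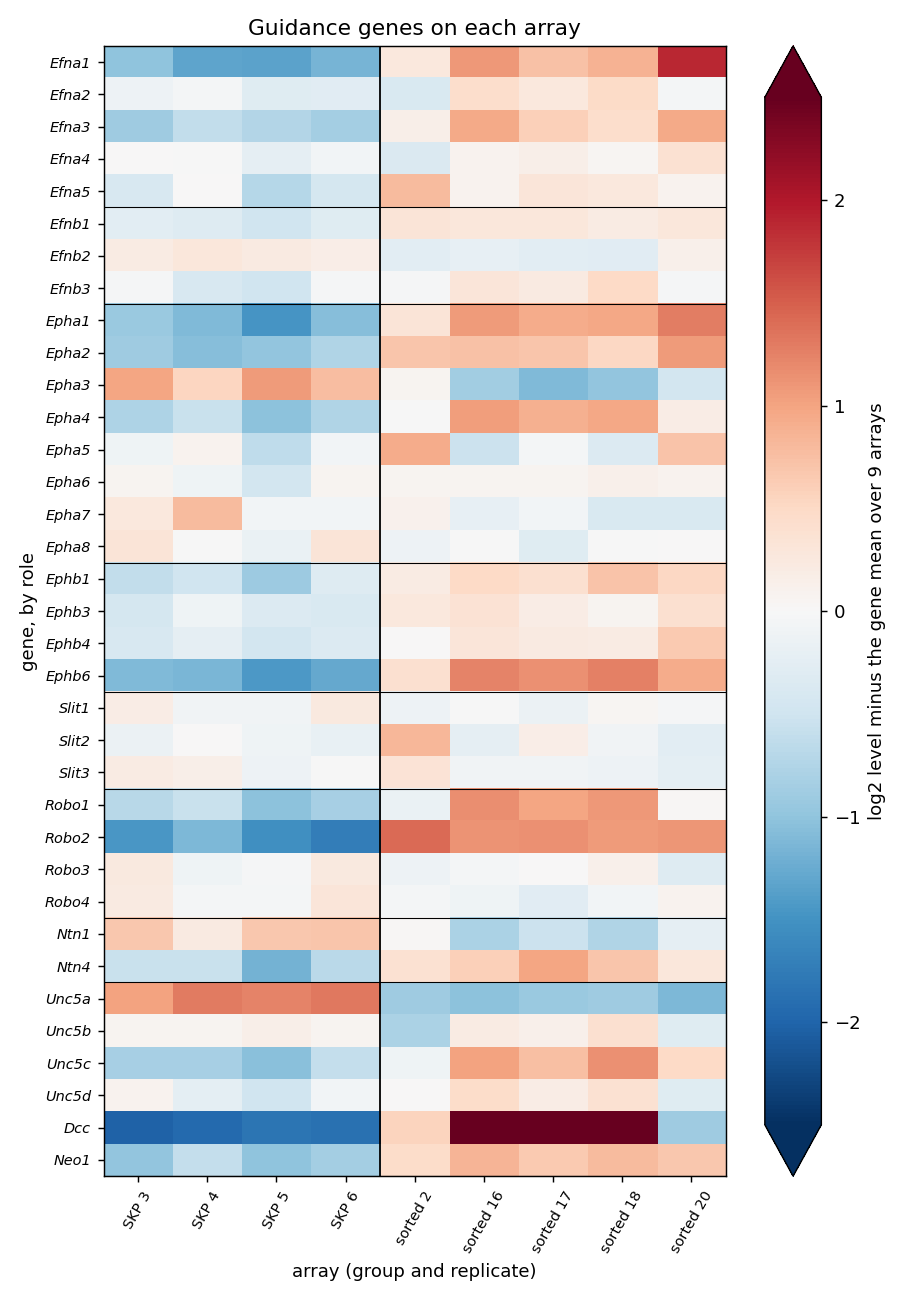
Log2 level of each of the 35 guidance genes on each array, minus the gene's mean over the 9 arrays (red above, blue below, colours capped at 2.5), with genes ordered by role. Among the genes lower by at least 2-fold, Dcc, Robo1, Epha4, Unc5c, Ephb6 and Ntn4 are highest on sorted replicates 16, 17 and 18. Robo2, Neo1 and Efnb1 are at a similar level on all 5 sorted arrays.

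Other genes of these pathways were taken from 4 lists by their known roles, 63 genes of which 60 were measured. Of the 60, 32 were called, which is 53.3%, against 37.0% of all genes. Of these, 12 were higher in SKPs (20.2% of all genes were) and 20 lower (16.9% of all genes were). Leaving out SKP replicate 3 brought the 20 to 13. Without sorted replicates 2 and 20, 15 were higher and 24 lower, and on median centring 14 were higher and 14 lower. Among 12 further ligands and receptors of these families 2 were higher and 3 lower, and the median log2 difference was 0.07. Ntng1, encoding netrin-G1, a surface-anchored relative of the netrins that does not bind Dcc, was lower, at 5.80 ± 0.10 against 8.87 ± 0.69 (approximately 8.39-fold, adjusted p = 3.30e-05). With the mean over all its probe sets, the decrease of Ntng1 was 3.18-fold (adjusted p = 7.78e-05). Its sorted values were lowest on replicates 2 and 20, at 8.22 and 8.01. Flrt3, whose product binds Unc5 receptors, was 3.19-fold lower (adjusted p = 1.75e-05) and was chosen after its values were seen. Flrt2, a relative of Flrt3 chosen here after its values were seen, was not called over all arrays (log2 difference 0.82, adjusted p = 0.131) and was called higher without sorted replicates 2 and 20 (1.46, adjusted p = 1.62e-05). Rgma, encoding a ligand of neogenin, was higher, at 9.64 ± 0.08 against 8.59 ± 0.27 (2.06-fold, adjusted p = 1.87e-04).

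Among 27 genes of Eph signalling 7 were higher and 7 lower. Over all genes, 20.2% were higher and 16.9% lower. The median log2 difference of the 27 genes was -0.08. Sdcbp, encoding the adaptor syntenin that binds the tails of B-class ephrins, was higher, at 11.83 ± 0.10 against 10.15 ± 0.46 (3.20-fold, adjusted p = 1.50e-04). Rasa1, encoding a Ras GTPase-activating protein that binds EphB receptors, was higher, at 11.64 ± 0.11 against 10.33 ± 0.11 (2.49-fold, adjusted p = 1.94e-06). Tiam1, an exchange factor of Rac, was lower, at 7.31 ± 0.08 against 9.29 ± 0.59 (3.96-fold, adjusted p = 2.14e-04). Among 11 genes of Slit and Robo signalling 1 was higher, Myo9b (1.30-fold, chosen after its values were seen), and 6 were lower, and the median was -0.92. Cables1, which links Robo to Abl kinase, was at 5.65 ± 0.34 against 7.33 ± 0.53 (approximately 3.19-fold lower, adjusted p = 7.07e-04). Dag1, encoding dystroglycan, which binds Slits, was 2.49-fold lower (adjusted p = 6.38e-06) and was chosen after its values were seen. Among 10 genes of netrin signalling 2 were higher and 4 lower, and the median was -0.19. Ablim1, an actin-binding protein, was lower, at 6.87 ± 0.27 against 9.03 ± 0.63 (4.46-fold, adjusted p = 2.49e-04). The 3 lists of signalling genes hold many proteins that also serve other pathways.

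**Figure D4:**
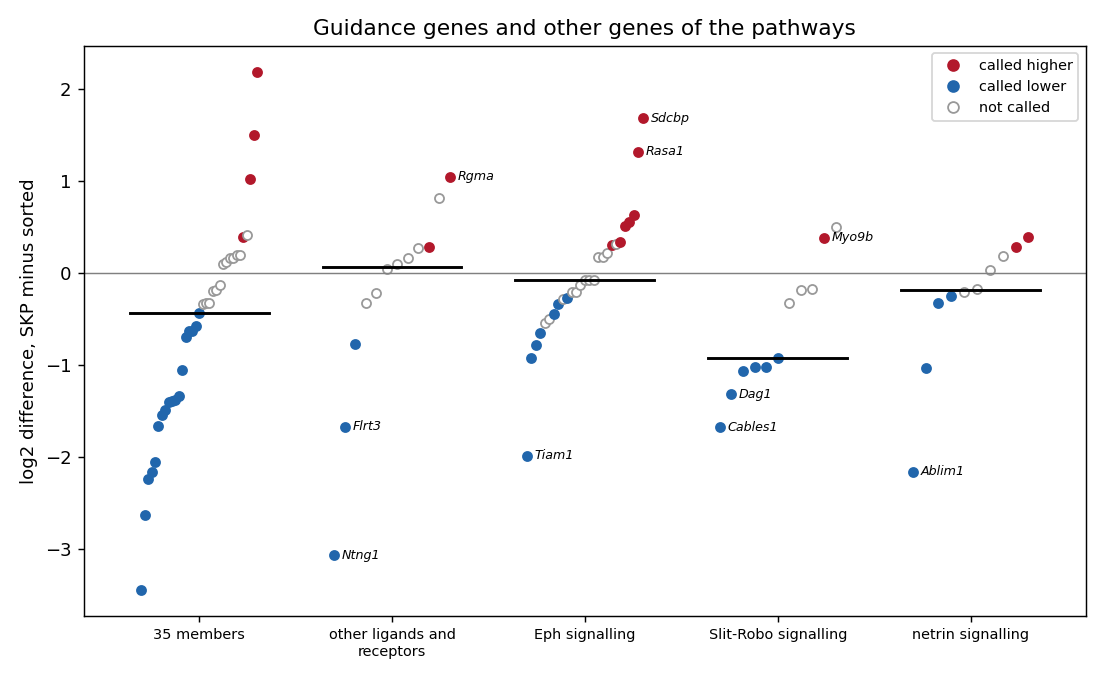
Log2 difference, SKP minus sorted, of the 35 guidance genes and of 60 other genes of the same pathways in 4 lists, with 1 point per gene ordered by value within a list. Red points were called higher, blue points lower and open points were not called, and the bar is the list's median, from 0.07 in the list of other ligands and receptors to -0.92 in the Slit and Robo signalling list.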

How the data were processed

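RNA of 4 SKP and 5 sorted preparations was hybridised to Affymetrix arrays (Mouse Gene 1.0 ST). The deposited values are log2 RMA levels per probe set. Per the submitters' processing notes, the tools were limma, RMA and Affymetrix Expression Console, with no version stated, and the build is not given in the sources used here. RMA includes background adjustment, quantile normalization and a summary over probes. Of 35556 probe sets, 21789 have 1 symbol and were used, giving 19938 genes with 1 probe set each, the one with the highest mean. SKP minus sorted was tested with limma 3.58.1 in R 4.3.3 (lmFit and eBayes, two-sided), with Benjamini-Hochberg adjustment over all genes and a threshold of 0.05. The fit was tested on simulated data. Values on every array are given for called genes with at least a 2-fold difference, and in the other lists the 3 called genes at each end and the called gene farthest from 0 in each list are named. The genes and lists were chosen with earlier results of these data known. Detection p-values were not used, and the number of arrays limits the precision. Alternatives were repeated quantile normalization, median centring, a filter on the dimmest 33.3% of genes (mean log2 under 6.31), the mean over probe sets, every probe set on its own, eBayes with trend and robust fitting, array weights, a threshold of 0.01, and leaving out each array or both sorted replicates 2 and 20. Plots were made in Python 3.11.15 with matplotlib 3.10.9.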

Additional observations from a re-analysis of the deposited data

Results flagged for a closer look

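Of 70 groups of arrays (35 genes in 2 groups), 6 held an array whose gap to its nearest neighbour took up an unusually large part of the group's range by Dixon's 95% limit, and chance flags about 1 in 20. Efnb2 was at 9.51 on sorted replicate 20, against 9.11 to 9.18 on the other 4. Slit3 was at 11.38 on sorted replicate 2, against 10.78 to 10.95. Robo2 was at 11.16 on sorted replicate 2, against 10.80 to 10.88, all above the SKPs. Ntn1 was at 10.26 on SKP replicate 4, against 10.71 to 10.73 on the other 3. Unc5b was at 9.003 on SKP replicate 5, against 8.91 to 8.92. Epha6 was at 5.49 on sorted replicate 18, against 5.43 to 5.44, all under the reference level. Epha6 was identical on sorted replicates 2, 16 and 17, and Unc5b on SKP replicates 3 and 6. The rate of 1 in 20 does not allow for such ties.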

How the results depend on the processing

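Over 18 alternatives, 20 of the 22 called guidance genes kept their direction and their call in every alternative in which they were tested. The other 2, Efna5 (at a threshold of 0.01, adjusted p = 0.0105) and Efnb3 (7 alternatives), lost it in at least 1. With every probe set on its own, each guidance gene was counted by its brightest probe set, so a further probe set could not change its call. Ephb1 kept its call in this way, whereas its further probe set was not called (log2 difference -0.14, limma adjusted p = 0.508). Of the 13 genes not called, 5 were called in at least 1 alternative, Efna2, Epha6, Epha8, Robo4 and Unc5d. The count of guidance genes called higher lay between 4 and 6 and the count called lower between 16 and 20. Over all genes, 6145 were higher with array weights, against 4020. Of the 60 other pathway genes, 13 were lower at a threshold of 0.01, against 20, and between 13 and 20 when each array was left out in turn. These alternatives are stricter or use fewer arrays by construction, and the cause of the count with array weights was not tested. Median centring moved the median of all genes by 0.07 and brought the share of higher calls from 54.4% to 64.4%. Of the fold changes of guidance genes, only that of Dcc moved by over 1.5 times without sorted replicates 2 and 20. No paired analysis was possible because the groups share no replicate numbers. Levels near the reference level limit the folds of Efna3, Epha1, Ephb1, Unc5a and Dcc.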
